A study of Mus musculus with 6 samples.

Results

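Clu, Trf, Ctsl, Cp, Shbg, Psap, Aard and Mro are 8 genes known for their expression in Sertoli cells, the somatic cells of the seminiferous tubule that enclose and feed the developing germ cells. They were chosen by name, as the rows of the authors' deposited gene table that carry these symbols, and make up 8 of its 55331 genes and 8 of the 22048 that were tested. The name under which they were grouped, secreted carriers and proteases, describes 6 of them. Aard and Mro are known as genes enriched in Sertoli cells or the male gonad, not as carriers or proteases.

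The samples were whole testes of mice of a mixed strain at 35 days of age. The control group holds 3 libraries of genotype Ptbp1fl/fl, and the Ptbp1_cKO group holds 3 libraries of genotype Ptbp1fl/fl with Amh-Cre+/-. Both groups therefore carry the floxed Ptbp1 allele, and they differ in the Amh-Cre transgene, whose Amh promoter is active in Sertoli cells. A group with Amh-Cre and no floxed allele was not analysed here, so what Cre itself does and what loss of Ptbp1 does cannot be told apart. Ptbp1 encodes an RNA-binding protein that regulates splicing, and the study asked what it does in Sertoli cells. The labels do not say that each library came from its own animal, so the p-values measure only the spread between these libraries, which may be technical. In RNA from a whole testis, fewer cells of a type and less RNA per cell cannot be told apart.

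Sertoli cells form the blood-testis barrier, and germ cells beyond it receive iron, copper, lipids and hormone through proteins that the Sertoli cell secretes. Transferrin carries iron to the germ cells, ceruloplasmin is a copper-carrying ferroxidase, and the product of Shbg, known in the testis as androgen-binding protein, carries androgens in the tubule fluid. Clusterin is an extracellular chaperone and one of the most abundant proteins that Sertoli cells secrete. Cathepsin L is a lysosomal cysteine protease that Sertoli cells also release as a proenzyme, and prosaposin is the precursor of the saposins, small proteins that present sphingolipids to lysosomal hydrolases.

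All values are those of the authors' deposited table, which gives 1 FPKM (fragments per kilobase of transcript, scaled to sequencing depth) for each group and no value per library. No SD can therefore be given, and libraries that stand apart could not be looked for. The table's test statistic was read as the log2 fold change divided by its standard error. On that reading each fold change has an implied standard error, and the 95% intervals given with the genes are the normal intervals it yields. For each of the 8 genes a two-sided normal p from the statistic was larger than the deposited p. The intervals are therefore wider than the deposited p-values imply. Whole fragments could be recovered from the low FPKM values, as steps read as 1 per library. A group value was taken as the average over its libraries. Summed over the libraries, 1 FPKM then corresponded to about 226 fragments per kilobase of effective length in control and about 204 in Ptbp1_cKO. The deposited FPKM of Ptbp1 itself, the targeted gene, was 49.97 in control and 46.66 in Ptbp1_cKO (log2 fold change -0.10, q = 0.999 in the authors' deposited table), so its level in whole testis does not check the labels.

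Among all tested genes the authors' deposited table placed 101 higher in Ptbp1_cKO at q under 0.05, which is 0.458% of those tested, and 155 lower, which is 0.703%. Of the 8 genes, 1 was called higher and 0 were called lower. Clu was the one called. At an unadjusted p under 0.05 the deposited table held 1979 genes in either direction (8.98% of those tested), and 3 of the 8 passed this mark, Clu, Ctsl and Shbg. Ctsl alone had a lower FPKM in Ptbp1_cKO, and the other 7 had a higher one. Their median log2 fold change was 0.13, beside a median of 0.01 over the 22020 tested genes above 0 in both groups.

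The table of RefSeq starts used here (GRCm38.p6) was matched for 4 of the 8 genes, Cp, Psap, Shbg and Ctsl, with 6 starts in all. Cp and Psap have 2 starts each. For Cp, Psap and Shbg the bases before the start at the 5' end of the gene are shown, to let a reader see the sequence in front of these genes. They are printed 5' to 3' on the gene's strand, with matches to the searched motifs in capitals.
Shbg (chr11:69617906-69618155, minus strand): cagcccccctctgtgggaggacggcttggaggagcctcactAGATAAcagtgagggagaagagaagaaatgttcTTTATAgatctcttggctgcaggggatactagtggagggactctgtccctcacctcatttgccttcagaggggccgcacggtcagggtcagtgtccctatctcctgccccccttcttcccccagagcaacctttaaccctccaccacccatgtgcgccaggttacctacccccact
Cp (chr3:19956804-19957053, plus strand): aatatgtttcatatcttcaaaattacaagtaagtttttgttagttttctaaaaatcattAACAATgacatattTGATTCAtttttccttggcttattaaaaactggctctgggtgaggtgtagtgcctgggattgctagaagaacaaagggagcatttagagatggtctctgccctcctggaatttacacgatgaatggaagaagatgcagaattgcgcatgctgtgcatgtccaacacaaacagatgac
Psap (chr10:60277378-60277626, plus strand): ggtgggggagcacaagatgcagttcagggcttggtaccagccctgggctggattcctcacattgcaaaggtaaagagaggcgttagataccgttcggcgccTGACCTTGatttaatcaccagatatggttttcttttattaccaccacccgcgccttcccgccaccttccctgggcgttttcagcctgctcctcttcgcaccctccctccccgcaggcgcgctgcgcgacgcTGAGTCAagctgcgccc

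The motifs searched on both strands were the SOX core AACAAT, the GATA core AGATAA, the NR5A1 site CAAGGTCA, the cyclic AMP response element TGACGTCA, the AP-1 site TGANTCA, the E-box of lysosomal genes TCACGTGA, the TATA box TATAAA and the CCAAT box CCAAT. Upstream of Shbg stood a GATA core at -209, counted from the start, and a reversed TATA box at -176. Upstream of Cp stood a SOX core at -191 and an AP-1 site at -177. Upstream of Psap stood a reversed NR5A1 site at -149 and an AP-1 site at -18. The second Cp start, at 19957249 inside the gene, had TATA boxes at -27 (reversed) and -25 and a CCAAT box at -118. These matches lie inside the annotated gene too, which begins at 19957054. The second Psap start, at 60284461 inside the gene, had a reversed SOX core at -218 and a GATA core at -106. The Ctsl start, at 64370520, whose stretch is not printed, had a reversed SOX core at -143. Both lie inside the annotated gene, whose 5' end is at 64370890. Over the 32851 RefSeq windows from 250 bases before to 50 bases after a start, the SOX core was found in 10.7%. The GATA core was found in 11.2%, the AP-1 site in 7.81%, the TATA box in 13.6% and the NR5A1 site in 1.56%. The CCAAT box was found in 37.4%, the cyclic AMP response element in 1.79% and the lysosomal E-box in 0.974%, and none of these matched in the printed stretches. GC content was 57.2% in the Shbg stretch, 37.2% in the Cp stretch and 59.0% in the Psap stretch. The median over the 250 bases before the start of all windows was 52.4%.

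Clu (ENSMUSG00000022037.15; mm10 chromosome 14, 65968483 to 65981547, plus strand) was the most abundant of the 8 and the gene whose level rose. Its deposited FPKM was 853.6 in control and 1199 in Ptbp1_cKO, a rise of 345.2 FPKM. The level stood 78th among tested genes in control and 35th in Ptbp1_cKO. The authors' deposited table gives a log2 fold change of 0.49, a 1.40-fold rise, with p = 5e-05 and q = 0.00848. The implied standard error was 0.186, and the 95% interval ran from 0.13 to 0.85 in log2, or from 1.09-fold to 1.81-fold. The p of 5e-05 is the smallest in the deposited table and is shared by 130 tested genes.

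Among the 1486 tested genes with a mean FPKM of at least 100, 2 had a larger log2 fold change than Clu, the glutathione transferase gene Gstm1 and the predicted gene Gm39164, both looked up after their values were seen. In that class the median log2 fold change was -0.07, and the 5th to 95th percentiles ran from -0.27 to 0.20. A two-sided normal p taken from the deposited statistic of Clu was 0.00847, well above the deposited p, and after Benjamini-Hochberg adjustment over the 22020 genes with a statistic it was 1.0. By that reading 9 genes were called higher (0.0409% of the 22020) and 0 of the 8. A rule that also asks for a change of at least 1.5-fold did not call Clu either.

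Clu made up 57.3% of the summed FPKM of the 8 genes in control and 67.5% in Ptbp1_cKO. The sum was 1489 in control and 1775 in Ptbp1_cKO, 1.19 times as high. Without Clu it was 635.3 and 576.7, 0.908 times as high. Of the other 7, Ctsl was the one with a lower level.

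**Figure D1:**
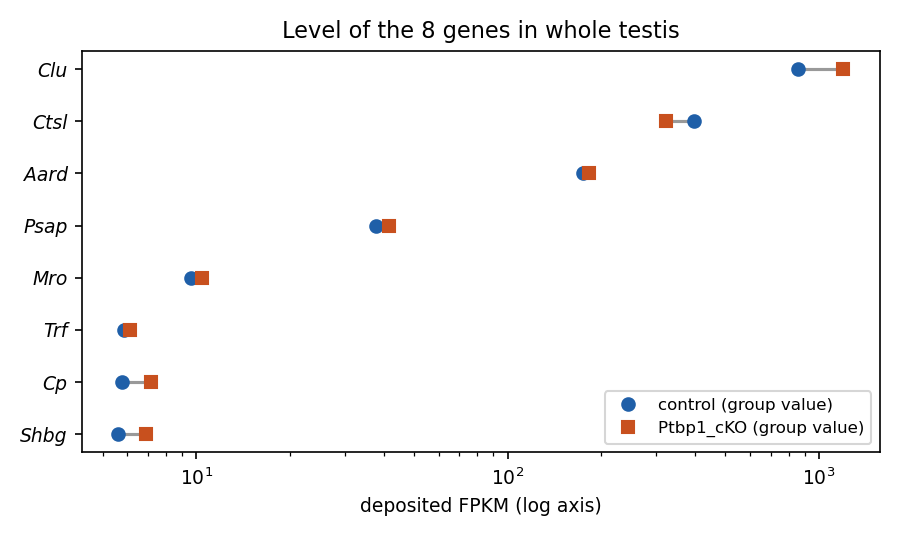
Deposited FPKM of the 8 genes (log axis) in control and Ptbp1_cKO, 1 point for each group value, with no error bar since the table holds no value per library. Clu and Ctsl stand highest, Trf, Cp and Shbg lie close together between 5.6 and 7.1 FPKM, and the gaps between the groups in FPKM are largest for Clu, upward, and Ctsl, downward.

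Trf, the iron carrier (ENSMUSG00000032554.15; chromosome 9, 103204001 to 103230444, minus strand), had a deposited FPKM of 5.87 in control and 6.12 in Ptbp1_cKO. In the authors' deposited table the log2 fold change was 0.06 (p = 0.683, q = 0.999), with an interval from -0.48 to 0.60. Changes from 0.715-fold to 1.52-fold lie inside that interval. The annotation holds a second gene on the same strand, Gm20425, whose transcript is 98.0% identical to the longest Trf transcript over 83.6% of its length. Gm20425 was not analysed here, and the Trf level is uncertain where reads could be split between them.

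Cp, the ferroxidase (ENSMUSG00000003617.16; chromosome 3, 19957054 to 20009145, plus strand), had a deposited FPKM of 5.75 in control and 7.13 in Ptbp1_cKO. The authors' deposited table gives a log2 fold change of 0.31 with p = 0.167 and q = 0.831. Its implied standard error of 0.415 was the widest of the 8, and the interval ran from -0.50 to 1.13. Hps3, on the other strand, overlaps Cp and stood at 1.35 and 1.92 FPKM (log2 fold change 0.51, q = 0.674 in the authors' deposited table). Whether counting used the strand is not given in the sources used here, so reads of the overlap cannot be told apart.

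Shbg, the androgen carrier (ENSMUSG00000005202.2; chromosome 11, 69614804 to 69617905, minus strand), had a deposited FPKM of 5.62 in control and 6.89 in Ptbp1_cKO. Its log2 fold change was 0.29 in the authors' deposited table, with p = 0.0462 and q = 0.537. The interval from -0.22 to 0.81 includes 0, and the normal p from the statistic was 0.266. Shbg thus passed the unadjusted mark by the deposited p and not by its own statistic.

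From high to low the levels in both groups ran Clu, Ctsl, Aard, Psap and Mro, and Trf, Cp and Shbg were the lowest. Their order was Trf, Cp, Shbg in control and Cp, Shbg, Trf in Ptbp1_cKO. The implied standard errors are those of changes between groups, and no spread of a level within a group was available. The order of these levels was therefore not tested.

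Ctsl, the protease (ENSMUSG00000021477.9; chromosome 13, 64359337 to 64370890, minus strand), was the only one of the 8 with a lower level in Ptbp1_cKO. Its deposited FPKM was 396.6 in control and 322.5 in Ptbp1_cKO, a difference of -74.1 FPKM. The log2 fold change of -0.30 did not pass adjustment in the authors' deposited table (p = 0.0146, q = 0.318). The interval ran from -0.72 to 0.12, or from 0.609-fold to 1.09-fold, and the normal p was 0.161. Among the genes with a mean FPKM of at least 100, 53 (3.57%) had a lower log2 fold change than Ctsl. An antisense gene, Gm47123, and a processed pseudogene, Gm49230, overlap Ctsl in the annotation and are listed at 0 in both groups.

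Psap, the saposin precursor (ENSMUSG00000004207.14; chromosome 10, 60277627 to 60302597, plus strand), had a deposited FPKM of 37.7 in control and 41.7 in Ptbp1_cKO. The authors' deposited table gives a log2 fold change of 0.15 with p = 0.169 and q = 0.834, and the interval ran from -0.21 to 0.51. Ctsl stood 10.5 times as high as Psap in control and 7.74 times as high in Ptbp1_cKO, on the FPKM scale, which is per length. Clu stood 2.15 times as high as Ctsl in control and 3.72 times as high in Ptbp1_cKO. These ratios between genes were not tested.

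Aard (ENSMUSG00000068522.4; chromosome 15, 52040107 to 52045722, plus strand), which encodes an alanine- and arginine-rich protein, had a deposited FPKM of 174.1 in control and 181.8 in Ptbp1_cKO. Its log2 fold change in the authors' deposited table was 0.06 (p = 0.543, q = 0.999). The interval from -0.28 to 0.41 was the narrowest of the 8 and bounds the change between 0.822-fold and 1.33-fold.

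Mro, also named maestro (ENSMUSG00000064036.15; 73859385 to 73881333, plus strand), had a deposited FPKM of 9.65 in control and 10.5 in Ptbp1_cKO. The authors' deposited table gives a log2 fold change of 0.12 with p = 0.418 and q = 0.999, and the interval ran from -0.39 to 0.62.

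**Figure D2:**
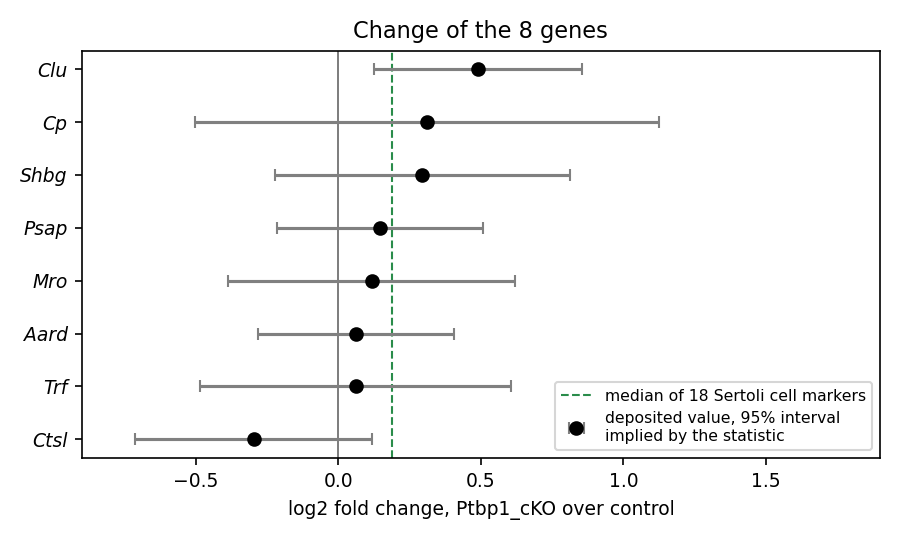
Log2 fold change of the 8 genes, Ptbp1_cKO over control, with bars for the 95% interval implied by the deposited statistic. The dashed line is the median of 18 Sertoli cell markers, 0.19. The interval of Clu, from 0.13 to 0.85, lies above 0 and includes that median, and the other 7 intervals include 0. The intervals are wider than the deposited p-values imply, and those of Ctsl and Shbg include 0 although their unadjusted deposited Cuffdiff p was under 0.05.

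Counting error was smaller than the implied standard errors. Taken for 1 kb of effective length, so that the genes' own lengths do not enter, the fragments give a counting error of the log2 fold change from 0.0044 at the level of Clu to 0.0569 at that of Trf. On that common length the implied standard errors were from 4.7 times the counting error for Shbg to 42.4 times for Clu.

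**Figure D3:**
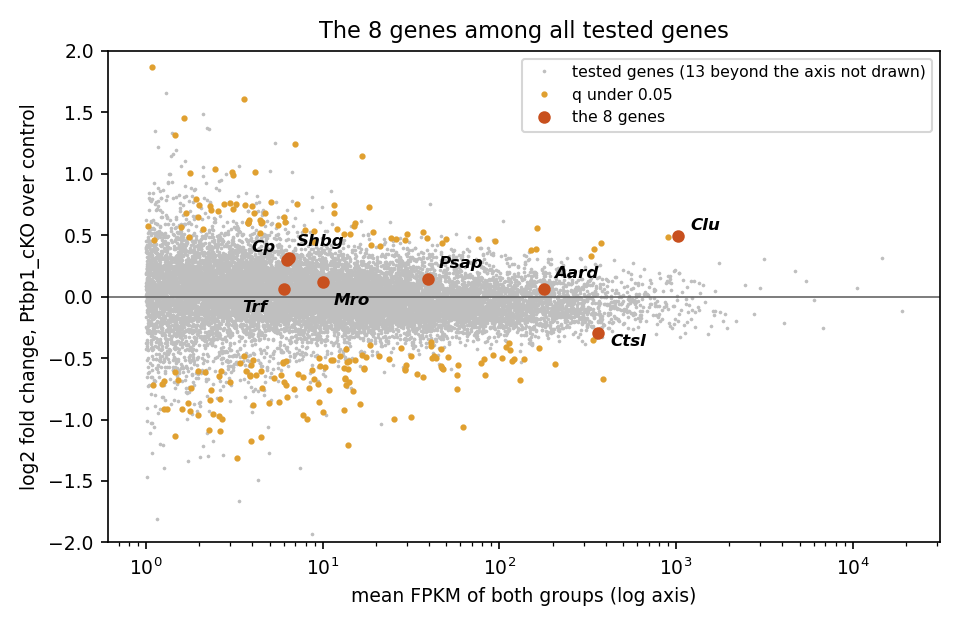
Log2 fold change against mean FPKM of both groups (log axis) for tested genes with a mean FPKM of 1 or more, with genes at q under 0.05 in orange and the 8 genes in red. Clu lies at the upper edge of the abundant genes, Ctsl at the lower edge, and the other 6 lie within the bulk of genes of like level.

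Most Sertoli cell markers had higher values in Ptbp1_cKO, though none passed the threshold. Of 20 markers 18 had a higher FPKM, from sums of 542.4 to 572.2. At an unadjusted p under 0.05 there were 6, all higher, beside 8.98% of all tested genes in either direction. In either direction 0 were called, beside 0.458% higher and 0.703% lower of all tested genes. Cst9 and Defb36 had the highest levels, with 200.6 and 192.9 FPKM for Cst9 and 60.9 and 64.1 FPKM for Defb36 in control and Ptbp1_cKO. The median log2 fold change of the 18 markers that reached 1 FPKM in either group was 0.19. Relative to that median, the log2 fold change of Clu was 0.30 and that of Ctsl -0.49, while Cp stood at 0.12 and Shbg at 0.11. Trf, Psap, Aard and Mro then took negative values, from -0.13 to -0.04.

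Other cells also express some of these genes, and their markers are given as measured. Clu is abundant in the epididymis as well, and of 10 epididymis markers 2, Lcn8 and Ovch2, were at 0 in both groups. Their summed FPKM was 6.48 in control and 12.8 in Ptbp1_cKO, and Crisp1 rose, from 0.0482 FPKM in control to 5.90 in Ptbp1_cKO (the authors' deposited table gives q = 0.00848). Defb21, at 4.07 and 4.22 FPKM, was the highest of the list in control, and Crisp1 was the highest in Ptbp1_cKO. The part of epididymal RNA in the Clu result was not tested.

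Ctsl and Psap are expressed by macrophages too. Of 13 macrophage markers 11 had a higher FPKM and 2 were called higher in the authors' deposited table, C1qb and Fcer1g, beside 0.458% of all tested genes, with a summed FPKM of 426.4 and 430.9. Most of that sum was Aif1, at 366.3 and 353.8 FPKM, and without Aif1 it was 60.2 and 77.1. The median log2 fold change of the 13 macrophage markers was 0.36. Of 11 Leydig cell markers 6 had a higher and 5 a lower FPKM, with a median log2 fold change of 0.03, and 2 were called higher, Insl3 and Fdxr, beside the same 0.458%. Their summed level was 1222 in control and 1502 in Ptbp1_cKO, and without Insl3 it was 472.9 and 452.9. The sums were 188.3 and 213.1 FPKM for 6 peritubular myoid markers and 10.1 and 11.8 for 6 endothelial markers. For 5 blood markers they were 16.1 and 19.2. In these lists 5, 6 and 4 markers had a higher FPKM and 1, 0 and 1 a lower one. Their median log2 fold changes were 0.18, 0.21 and 0.51, beside 0.19 for the Sertoli cell markers. In each list 0 were called, beside 0.458% higher and 0.703% lower of all tested genes. Of 8 spermatogonia markers 5 had a higher and 3 a lower FPKM, with a median log2 fold change of 0.19, and 2 were called higher, Kit and Uchl1, again beside 0.458%. Their sum was 1377 in control and 1298 in Ptbp1_cKO, most of it Dmrtb1, and without Dmrtb1 it was 93.6 and 106.8. Spermatocyte markers summed to 882.1 and 806.5 and round spermatid markers to 1907 and 1751. Of these 7 of 9 and 7 of 8 were lower and 0 were called, beside 0.703% called lower among all tested genes. Of 9 elongating spermatid markers 8 were tested. Prm2 was not tested and is listed at 0 in both groups, so the sums, 48015 and 50727, leave it out. Of the 8 tested, 6 had a higher and 2 a lower FPKM. None was called, beside 0.458% higher and 0.703% lower of all tested genes. The part of these cells in the values of the 8 genes was not tested.

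The list of iron and copper handling genes held 1 call, at a gene listed at 0 in control. Of 24 genes of iron and copper handling 22 were tested, and 1 was called higher and 0 lower, beside the 0.458% and 0.703% of all tested genes. The gene called was Ltf, which encodes lactotransferrin, listed at 0 in control and at 1.10 FPKM in Ptbp1_cKO (q = 0.00848 in the authors' deposited table). The ferritin subunit genes had the highest levels. Fth1 stood at 178.5 and 188.5 FPKM, and Ftl1 at 37.6 and 44.9 (log2 fold change 0.26, p = 0.0322, q = 0.454 in the authors' deposited table). The median log2 fold change of the 22 was 0.00, with 12 higher and 10 lower, and the transferrin receptor gene Tfrc was at 6.99 and 6.49 FPKM.

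None of the other lysosomal proteases or their inhibitors was called, where 0.458% of all tested genes were called higher and 0.703% lower. At those shares lists of this size would mostly hold no call. Of 15 cathepsin-list genes other than Ctsl, 12 were tested, and 10 of these had a higher and 2 a lower FPKM. Their median log2 fold change was 0.17, and 0 passed an unadjusted p under 0.05, beside 8.98% of all tested genes. Ctsd was at 23.4 and 25.3 FPKM and Lgmn, which encodes legumain, at 19.95 and 21.16. Ctsl, at 396.6 FPKM in control, therefore stood far above the other cathepsins and on the lower side, while most of them had values on the higher side. Of 9 tested cystatins, inhibitors of cysteine proteases, 4 had a higher and 5 a lower FPKM, and their median was -0.01. The most abundant were Cst8, at 249.6 and 247.6 FPKM, and Cst9, at 200.6 and 192.9.

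None of the lysosomal hydrolases and activators that work with saposins passed the threshold, beside 0.458% higher and 0.703% lower of all tested genes. Of 13 tested, 10 had a higher and 3 a lower FPKM, 0 were called and the median was 0.11. Gm2a, the activator of ganglioside breakdown, was at 88.0 and 85.2 FPKM, and Arsa, which encodes arylsulfatase A, at 68.5 and 72.2. Scarb2, the receptor that carries glucocerebrosidase to lysosomes, was at 3.32 and 4.35 FPKM (log2 fold change 0.39, p = 0.00295, q = 0.132 in the authors' deposited table).

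Of 14 genes for receptors that take up or sort these proteins, 12 were tested, 8 higher and 4 lower, with a median of 0.04. Of the 12, 0 were called, beside 0.458% higher and 0.703% lower of all tested genes. Lrp8, a receptor for apolipoprotein E and clusterin, was at 37.3 and 39.8 FPKM, and Sort1, which encodes sortilin, at 21.7 and 21.8. Lrp2, the megalin gene, was at 0.109 and 0.101 FPKM and was not tested. Of the other extracellular chaperones and lipoprotein genes 7 of 12 were tested and 0 called, beside the same shares, with a median of 0.02. At an unadjusted p under 0.05 there were 3, all higher, beside 8.98% of all tested genes in either direction. Apoe was at 125.2 and 157.4 FPKM (log2 fold change 0.33, p = 0.00305, q = 0.134 in the authors' deposited table), and Rbp4 at 3.10 and 2.47.

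Of 24 other secreted products of Sertoli cells, all tested, 16 were higher and 8 lower, and the median was 0.19. Of the 24, 0 were called, beside 0.458% higher and 0.703% lower of all tested genes. Sparc was at 132.0 and 163.5 FPKM (log2 fold change 0.31, p = 0.002, q = 0.103 in the authors' deposited table). Clu was thus the only gene among these Sertoli products and the 8 together that passed the threshold.

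**Figure D4:**
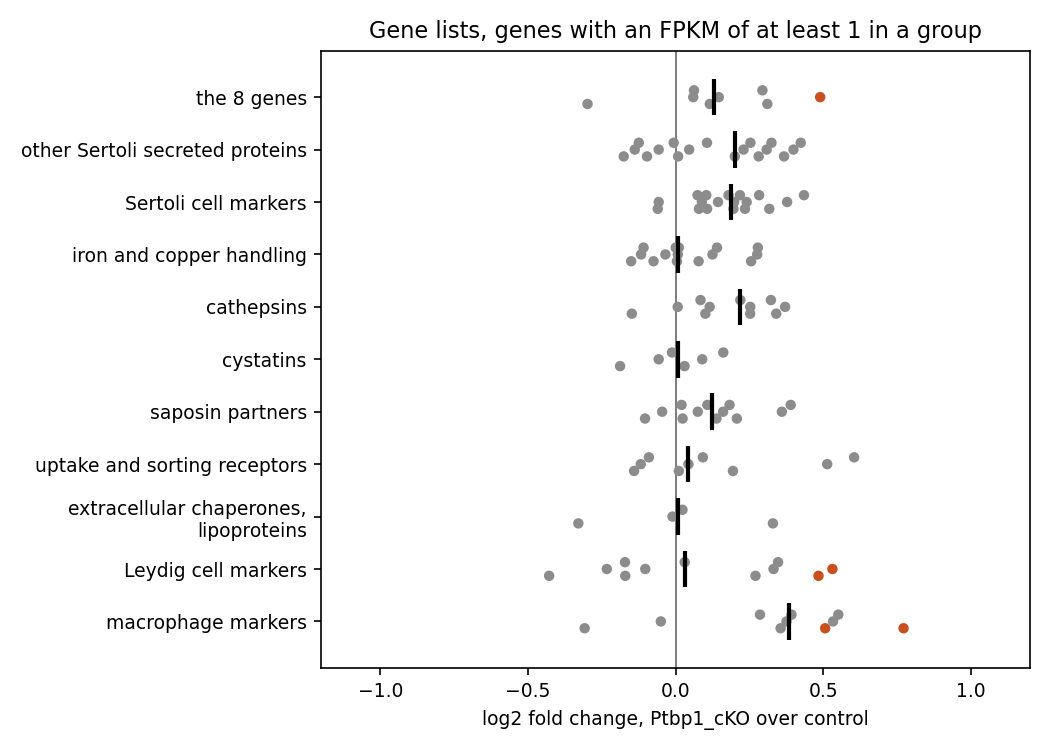
Log2 fold change, Ptbp1_cKO over control, of the tested genes of each list, and of 3 marker lists, that reached 1 FPKM in either group. Each point is a gene, red where q is under 0.05, and the black bar is the median of the points, so it can differ from the median over all tested genes of a list. Bmp4 lies beyond the axis and Ltf, listed at 0 in control, has no finite value, so neither is drawn. The 8 genes and the other Sertoli products sit mostly to the higher side, and iron and copper genes centre near 0.

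Neighbouring genes on the chromosome were looked up as well. Scara3, 14548 bp before Clu on the other strand, was lower in Ptbp1_cKO, at 0.800 and 0.485 FPKM (log2 fold change -0.72, q = 0.0387 in the authors' deposited table), so the gene beside Clu did not share its direction. Gulo, 5239 bp after Clu, was at 0.205 and 0.184 FPKM, with q = 0.999 by the authors' deposited table. Atp1b2, 8862 bp from Shbg and encoding a beta subunit of the sodium-potassium pump, was higher, at 15.97 and 21.35 FPKM (log2 fold change 0.42, q = 0.0281 in the authors' deposited table). Sat2, 4119 bp from Shbg on the other strand, was at 8.31 and 6.58 FPKM (log2 fold change -0.34, q = 0.535 in the authors' deposited table). The other neighbours of the 8 genes were not called.

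The genes nearest to each of the 8 were found by the Euclidean distance over 2 values, the log2 FPKM of each group, so that nearness means a like level and a like difference and nothing more. For Clu they were Mt1 (0.22), Insl3 (0.27) and Gapdhs (0.29), the distances being in log2. Insl3, the Leydig cell hormone gene, was at 749.6 and 1049 FPKM, with a log2 fold change of 0.48 in the authors' deposited table, next to 0.49 for Clu. For Ctsl they were Arl4a, Ccdc181 and Cylc2, within 0.07. Arl4a was at 393.1 and 310.4 FPKM (log2 fold change -0.34, q = 0.0551 in the authors' deposited table). For Shbg the nearest was Rara, the gene of the retinoic acid receptor alpha, at 5.61 and 6.93 FPKM. The nearest were Rnf170, Ufm1 and Zfp507 for Trf and Camkmt, Nav2 and Phyh for Cp. They were Terf1, App and Jund for Psap, Syngr4, Creb3l4 and Ubl5 for Aard, and Hspb7, Irf2 and Bicd2 for Mro.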

How the data were processed

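Polyadenylated RNA of whole testis was sequenced from 3 control and 3 Ptbp1_cKO libraries with a stranded TruSeq kit, per the labels' protocols. The build mm10 and the tools Cuffdiff, Cufflinks, STAR 2.6.1d, Trimmomatic 0.38 and bcl2fastq 2.20 are listed in the submitters' processing notes, without settings. The authors' deposited table holds 1 FPKM per gene and group, a log2 fold change, a test statistic (a score with a sign, per the file headers), and Cuffdiff's p-value and q-value. The sequencing depth of each library is not given in the sources used here, and the recovered fragment steps are not tied to named libraries. Deposited log2 fold changes matched the log2 ratio of both FPKM within 1.37e-05, and the q was recomputed from the p of 22048 tested genes by Benjamini-Hochberg to within 5.2e-07.

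The main call was the deposited q under 0.05. From the statistic, the implied standard error, the 95% interval and a two-sided normal p were computed, and simulated data were used to test these steps and the recovery of fragments. Alternatives covered the p, the threshold, the FPKM filter, a 1.5-fold rule, pseudocounts of 1 and 0.1, and scaling. Members and gene lists were chosen with earlier results of these data known. Named genes are the 8, the 2 most abundant tested genes and every called gene of each list, the 3 genes nearest to each of the 8, called neighbours, and the most abundant markers; others were chosen after their values were seen. Positions are 1-based, from GENCODE M21 on mm10, which held 98.6% of the gene identifiers. Near copies were sought with BLAST 2.17.0 at 90% identity over 50% of the longest transcript. Planned protein features were not computed, and a planned gene list, a motif and a few named genes are not reported here. Python 3.11.15, pandas 2.3.3, numpy 2.4.6, scipy 1.17.1 and matplotlib 3.10.9 were used.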

Additional observations from a re-analysis of the deposited data

How the results depend on the processing

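The count of called genes depended on the p and its threshold. The 1 of the 8 genes called higher by the deposited q became 0 by the normal p, 0 with a change of at least 1.5-fold and 2 by the unadjusted p, and the 0 called lower became 1 by the unadjusted p. The 101 genes called higher over the whole table became 9 by the normal p, 50 at q under 0.01, 184 at q under 0.10, 966 by the unadjusted p and 66 with the 1.5-fold rule. The 155 called lower became 10, 80, 237 and 1013 under the first 4 of these. Clu kept its call at q under 0.01 and 0.10 and with the filter at 1 FPKM. The log2 fold changes of all 8 genes kept their sign under both pseudocounts and 3 of the 4 scalings. Centring on the Sertoli cell markers turned 4 signs (Trf, Psap, Aard and Mro) and moved Clu to 0.30, Psap to -0.04 and Aard to -0.13.

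No paired analysis was possible because the table gives 1 value for each group. For the same reason the planned limma fit per library, with and without the replicate block, and the fits that leave out a replicate were not run. The width of the intervals rests on the deposited statistic.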

Other observations

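Several genes of the lists of receptors, other Sertoli products and Sertoli cell markers are given here without having passed the threshold. They were picked after their values were seen. Dab2, an adaptor for endocytosis by receptors of the LDL receptor family, was at 3.37 FPKM in control and 4.81 in Ptbp1_cKO (log2 fold change 0.51, p = 0.00095, q = 0.0687 in the authors' deposited table). Lrp1, one of those receptors, was at 7.63 and 11.6 FPKM, with a log2 fold change of 0.61. The implied standard error of that change was larger, at 0.898. Its p of 0.0902 in the authors' deposited table did not pass the unadjusted mark. Inha, the inhibin alpha subunit gene and a secreted product of Sertoli cells, was at 37.4 and 46.8 FPKM (log2 fold change 0.33, q = 0.136 in the authors' deposited table). Sox9, a transcription factor of Sertoli cells, was at 5.33 and 6.93 FPKM (log2 fold change 0.38, q = 0.0995 in the authors' deposited table).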
